A study of Mus musculus with 2 samples.

Results

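The Hoxd genes are 9 homeobox genes that lie side by side on mouse chromosome 2, all on the plus strand, in the order Hoxd13, Hoxd12, Hoxd11, Hoxd10, Hoxd9, Hoxd8, Hoxd4, Hoxd3 and Hoxd1. CTCF binding over them was described from ChIP-seq peak lists of 1 group, B6NCrl intestine at postnatal day 0, with 2 biological replicates. Per the labels, each replicate was made from powdered intestines gathered over several dissections, both replicates carry 1 biosample identifier, and no sex is recorded. The replicates may therefore share tissue, and there is no second condition, so no difference between groups was tested. Peak lists hold no expression values, so the tissue label could not be checked against marker genes. In a bulk tissue, fewer cells with a bound site and weaker binding per cell cannot be told apart. Members were chosen by position alone: every peak whose summit lay between 10 kb before the Hoxd13 start and 10 kb after the Hoxd1 end, on mm10 from 74658310 to 74775142 (116.8 kb). Of 73465 peaks in the authors' optimal list, 10 met this rule. That list keeps peaks by the irreproducible discovery rate (IDR), which scores whether a peak has a similar rank in the lists that are compared. The list of replicate 1 placed 36 of its 300000 peaks there and that of replicate 2 placed 34 of its 300000.

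Hox genes encode transcription factors that give cells their position along the body axis, and their order on the chromosome follows the order in which they act along it. The zinc-finger protein CTCF recognises a long DNA motif and helps to set where chromatin domains end, and the direction of the motif influences which sites come into contact. The Hoxd cluster is known for lying between a pair of large regulatory domains. The one before Hoxd13 drives the posterior genes in digits and genitals, the one beyond Hoxd1 drives more anterior genes in the forearm, and the cluster itself holds the border between them. In the gut, posterior Hoxd genes are known for patterning the hindgut and its sphincters.

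The 10 optimal peaks are numbered here in genome order, from the Evx2 side to the Hoxd1 side. The best-scoring site for a 19-base CTCF matrix within 100 bases of each summit is printed from the mm10 sequence, because its presence and direction carry the order described below. Each is given 5′ to 3′ on its own strand, with the 19 matched bases in capitals and 5 bases on either side. For 6 peaks the site reached the threshold score of 8.84, a score that 5% of windows 1 kb away from peaks of the training chromosomes also reached.
Peak 1, minus strand, chr2:74661997-74662015, score 10.85: cgaggAAAACAGATGGGGGCGCCAaatga
Peak 3, minus strand, chr2:74673174-74673192, score 10.64: ccaaaCGCCCAGGAGATGGCGAGCgtgct
Peak 4, plus strand, chr2:74686477-74686495, score 12.45: ttctaCAGCCACACGAGGGCGCGCtcatg
Peak 6, minus strand, chr2:74694225-74694243, score 10.68: cttacTGATCTCTAGGCGGCGCTCgcggg
Peak 8, plus strand, chr2:74702392-74702410, score 17.32: gcattTGGCCACTAGAGAGCGCTGttgct
Peak 10, plus strand, chr2:74715918-74715936, score 14.64: agcttTGTCCAGGAGGAGGCGCTGtagga

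At the other 4 peaks the best site stayed below the threshold and is shown for comparison only.
Peak 2, minus strand, chr2:74663743-74663761, score 5.56: cgcgcTTGGCGCTAGATGTCCCTGcaagt
Peak 5, plus strand, chr2:74691760-74691778, score 2.91: acaggCGCTTAGTAGATGTCGCTGttgtc
Peak 7, plus strand, chr2:74697767-74697785, score 7.15: cgccgCCGCCACCAGGGCGGGCTGagccg
Peak 9, minus strand, chr2:74704731-74704749, score 2.50: cgggtCCGCAGAGAGGGGGCGCGGccgaa
A score below the threshold says only that no match of this strength lies in the window.

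CTCF peaks filled the posterior part of the cluster and stopped before the coding start of Hoxd4. All 10 optimal summits lay within 54.0 kb, from 74662000 between Evx2 and Hoxd13 to 74715955 between Hoxd8 and the coding start of Hoxd4. The density over this stretch was 1.85 summits per 10 kb, and spacing between neighbours ran from 1.74 to 13.3 kb with a median of 4.63 kb. From the Hoxd4 coding start to the end of the span, 47.9 kb that hold the coding parts of Hoxd4, Hoxd3 and Hoxd1, there were 0 optimal summits. The conservative IDR list and the strongest 73465 peaks of each replicate alone also had 0 there. The next optimal summit beyond peak 10 lay 109.89 kb away at the start of Mtx2, a gene of mitochondrial protein import. Of all 73431 gaps between neighbouring optimal summits on chromosomes 1 to 19 and X, 5.86% were at least as long, against a median gap of 12.05 kb.

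**Figure D1:**
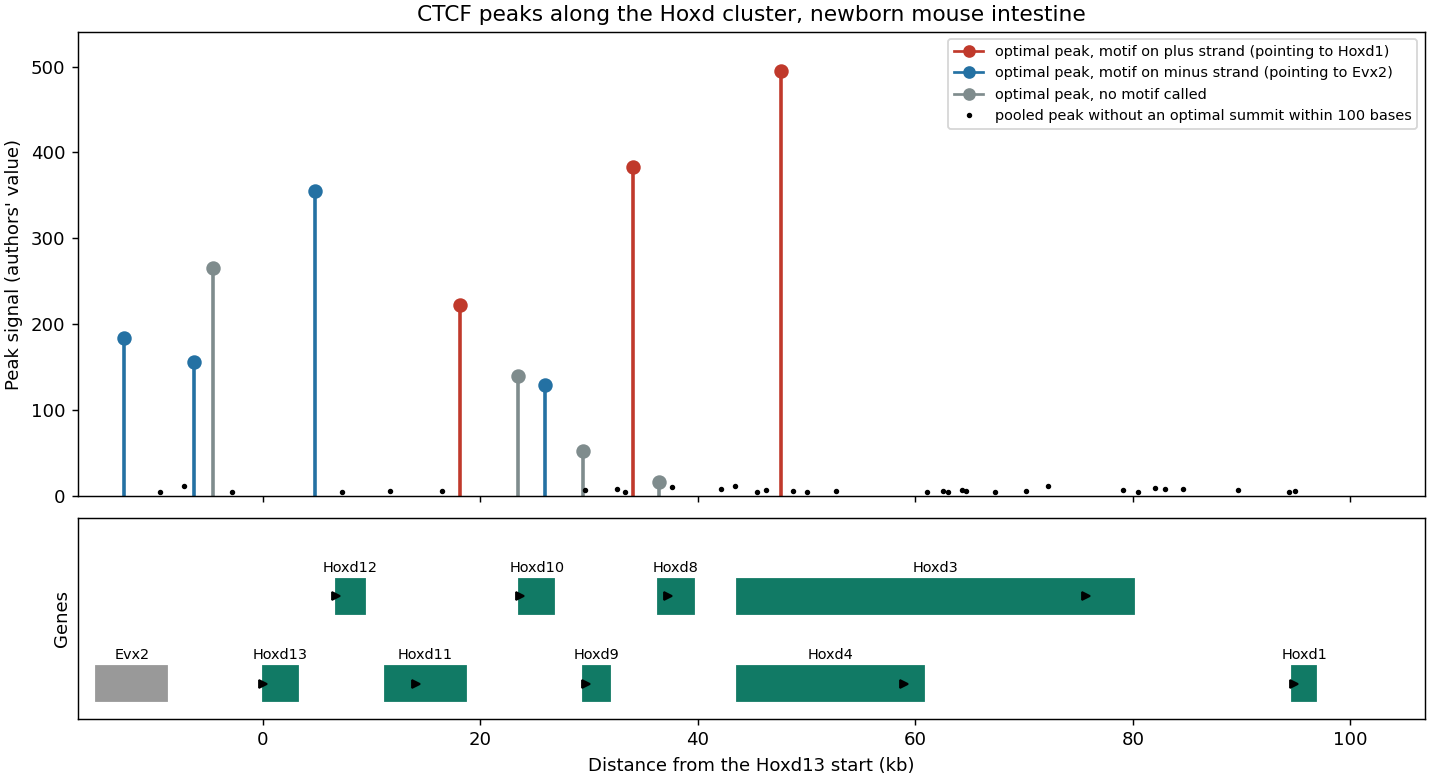
Peak signal (the authors' value, vertical axis) against distance from the Hoxd13 start in kb; stems are optimal peaks coloured by motif strand, the leftmost being the Evx2 peak just outside the span, small dots are weaker pooled peaks, and arrowheads in the lower panel mark coding starts. The tallest stem, peak 10 at 494, is the last one, and only weak pooled peaks of at most 11.3 follow it.

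The posterior edge of the cluster, between Evx2 and Hoxd13, held peaks 1 and 2. Hoxd13, which patterns digits, genitals and the hindgut, had no optimal summit within its gene body (74668310 to 74671599), where replicate 1 alone listed weak summits at 74669104 and 74670155 with signals of 4.08 and 3.68. Peak 1 (chr2:74661888-74662097) was intergenic, 6.31 kb before the Hoxd13 start, with a signal of 156.0 in the optimal list, 92.0 in replicate 1 and 65.8 in replicate 2. Peak 2 (chr2:74663600-74663864), also intergenic and 4.57 kb before Hoxd13, was stronger at 265.6, with 129.4 in replicate 1 and 138.3 in replicate 2. Peak 2 ranked above peak 1 in each replicate, by 15264 to 21206 in replicate 1 and by 14762 to 27578 in replicate 2. It was the strongest of the 4 peaks with no motif called. Signal is the enrichment value that the authors' peak caller gave; its scale is not stated, so it is set side by side across lists only as a value and compared by rank within a list.

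Peak 3 (chr2:74673011-74673296) lay in the intergenic space between Hoxd13 and Hoxd12, 1.85 kb before the start of Hoxd12, another hindgut and limb gene. Its signal was 354.9 in the optimal list, 173.8 in replicate 1 and 182.9 in replicate 2, the third highest of the span in all 3 lists. No optimal summit fell between the coding starts of Hoxd12 and Hoxd11. Peak 4 (chr2:74686375-74686613) lay at the far end of Hoxd11, a gene of forearm and kidney patterning. It overlapped an exon of a noncoding Hoxd11 transcript, 4.17 kb past the nearest annotated start of Hoxd11, with a signal of 222.7 (111.9 in replicate 1 and 111.3 in replicate 2). The motif of peak 4 was the first on the plus strand, pointing towards Hoxd1.

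Around Hoxd10, Hoxd9 and Hoxd8, genes of the trunk and limbs, the peaks were, with 1 exception, the weakest of the span in the optimal list and in replicate 1. Peak 5 (chr2:74691707-74691886) lay 142 bases before the Hoxd10 start and peak 6 (chr2:74694164-74694324) over the coding sequence of Hoxd10. Their optimal signals were 139.6 and 128.9. Replicate 1 gave peak 5 a signal of 68.0 and peak 6 one of 73.1, whereas replicate 2 gave 72.0 and 55.5, so the order of this pair differed between replicates. In replicate 2, peak 1 at the posterior edge, with 65.8, was weaker than peak 5. Peak 7 (chr2:74697619-74697928) lay 47 bases into Hoxd9, over the untranslated part of an exon, with a signal of 52.7 (25.9 and 27.1 in replicates 1 and 2). The exception was peak 8 (chr2:74702274-74702535), intergenic and 2215 bases before Hoxd8. Its signal was 382.9, with 181.0 in replicate 1 and 205.3 in replicate 2, the second highest of the span in each list.

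Peak 9 (chr2:74704596-74704905), 136 bases past the first annotated start of Hoxd8, was the weakest and the only one not seen in both replicates. Its signal was 15.7, at percentile 2.11 of the optimal list. Replicate 1 listed it with a signal of 13.3 at rank 63716. The nearest summit of replicate 2 was 909 bases away, with a signal of 2.81 at rank 266379. Peak 9 was also absent from the conservative list, which held the other 9.

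Peak 10 (chr2:74715793-74716126) was the strongest. Its signal was 494.3 at rank 1748 of the optimal list (percentile 97.6), with 248.4 at rank 1572 in replicate 1 and 250.4 at rank 1852 in replicate 2. It lay 41 bases past a start of Hoxd3os1, a noncoding RNA transcribed against the Hoxd genes, and inside the long upstream introns annotated for Hoxd3 and Hoxd4, genes of the neck vertebrae and hindbrain. The summit was 4.03 kb past the most upstream annotated start of Hoxd4, but 11.3 kb from its coding start and 28.1 kb from that of Hoxd3. Hoxd1, a gene known in mouse sensory neurons, was the farthest from an optimal summit: peak 10, at 47.0 kb before its start, was its nearest. The lists without an IDR threshold had weaker summits near the Hoxd1 start, at 74763234 in replicate 2 (signal 3.06) and at 74762718 and 74763210 in the pooled list (4.54 and 6.16).

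Counted by gene, 8 of the 9 members had an optimal summit within 10 kb of an annotated transcription start site (TSS), all but Hoxd1. Among all protein-coding genes the share was 73% (15877 of 21755). At 2 kb the count was 4 of 9, with Hoxd12, Hoxd10, Hoxd9 and Hoxd8, against 52.8% of protein-coding genes, and at 1 kb it was 3 of 9 against 45.7%. Measured from the coding starts, 6 of 9 had a summit within 10 kb, since Hoxd4 and Hoxd3 owe theirs to distant upstream starts. Neighbouring members share summits, so they are not independent: peak 3 was the strongest within 10 kb of Hoxd13, Hoxd12 and Hoxd11 alike. Of the 8 intervals between neighbouring coding starts 5 held a summit, and the 3 without were Hoxd12 to Hoxd11, Hoxd4 to Hoxd3 and Hoxd3 to Hoxd1.

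The IDR scores likeness of rank and the optimal list derives from both replicates, so the likeness of ranks among these peaks may be partly set by how the list was made. A like rank in each replicate was not required of every peak, since peak 9 was kept with no replicate 2 summit within 100 bases. The 9 peaks present in both had a rank order correlation of 0.95 between replicates, a description over 9 peaks of libraries that carry 1 biosample identifier. The 5 strongest came in the same order in each: peaks 10, 8, 3, 2 and 4. Peaks 1, 5 and 6 changed order, and peak 7 was the lowest of the 9 in both. Summits of replicate 1 lay 0 to 13 bases from the optimal summit and those of replicate 2 lay 0 to 25 bases away. Of the 10 peaks, 8 had a signal above 76.0, the median of the optimal list. With 2 replicates of unknown read depth, the error of a single signal could not be estimated.

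**Figure D2:**
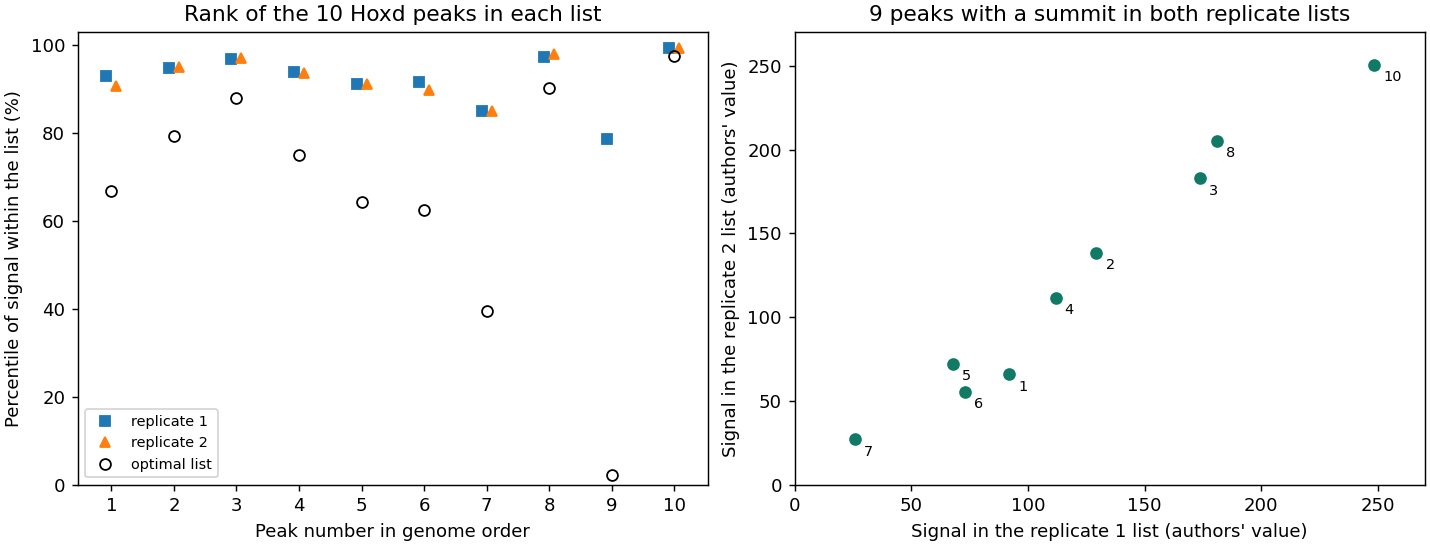
The left panel plots, for each of the 10 peaks in genome order, its percentile of signal within each replicate list and the optimal list; the right panel plots replicate 2 signal against replicate 1 signal for the 9 peaks in both. Peak 10 is highest in both replicates, peak 7 is the lowest of the 9 they share, and peak 9 has no point for replicate 2.

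Motif direction changed along the cluster. Read from Evx2 to Hoxd1, the 6 motifs lay on the minus strand at peaks 1 and 3, plus at peak 4, minus at peak 6 and plus at peaks 8 and 10, which is 3 on each strand with 3 changes. The posterior pair thus pointed towards Evx2, with Hoxd13 lying between peak 3 and Evx2, and the anterior pair pointed towards Hoxd1. The optimal peak just outside the span, over the untranslated end of Evx2, also had a minus-strand motif (score 19.12). The same order was found in the conservative list, in each replicate alone and with a matrix trained on even-numbered chromosomes. At the stricter threshold, reached by 1% of flanking windows, only peaks 8 and 10 kept a motif, both on the plus strand. This is 1 locus with 6 motifs, and no test of the order was made.

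The share of Hoxd peaks with a motif was 6 of 10, against 72.7% of the 32472 optimal peaks on even-numbered chromosomes, which took no part in training. The 6 sites had the same base at 8 to 13 of 19 positions when compared in pairs, and all 6 agreed at 5 positions. The motif of peak 8 scored above 80.4% of those best sites, that of peak 10 was at percentile 60.2, and the other 4 were between percentiles 35.4 and 45.4. Motif presence differed between peaks near to and far from protein-coding starts. The 3 peaks within 200 bases of a protein-coding TSS (5, 7 and 9, at Hoxd10, Hoxd9 and Hoxd8) had signals of 15.7 to 139.6 and none had a motif. The 7 others had signals of 128.9 to 494.3, and 6 had a motif. The 7 included peak 10, which has a motif and lies at a start of the noncoding Hoxd3os1, and peak 2, which has none and lies far from any start. On even-numbered chromosomes as a whole, 41.2% of peaks within 200 bases of a protein-coding TSS and 75.7% of those farther away held a motif, so the share was lower near starts there too. Signal differed less among all optimal peaks, with a median of 61.6 within 200 bases and 77.8 beyond. The highest signals were 732.3 and 756.3.

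Many motif matches in the span had no optimal or pooled peak. Scanning all 116.8 kb with the same matrix gave 22 matches, of which 6 were those under optimal peaks and 16 lay more than 100 bases from any optimal summit. Of these 16, 13 also had no pooled summit within 100 bases. They included matches of score 13.18 centred at 74724195, before the Hoxd4 coding start, and 12.24 at 74736648, between Hoxd4 and Hoxd3, which scored above 4 and above 3 of the 6 sites under peaks, respectively. The list of replicate 1 held a weak summit beside the latter, at 74736630 with a signal of 2.54. Of the 7 matches beyond peak 10, only 1 had a pooled summit. At the stricter threshold the only matches in the span were those of peaks 8 and 10. The usual threshold is also reached away from peaks, by 4.7% of flanking windows on even-numbered chromosomes. Laid end to end, windows of 100 bases on either side of a centre number 581 in the span. Over that many windows, a rate of 4.7% gives more than the 22 matches found. The number of matches thus shows no excess over the background rate. No test of this was made, and the matches without a peak are not shown to be unoccupied CTCF sites.

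All 10 peaks stood in CpG-rich sequence when set beside all optimal peaks. Within 100 bases of the summit they held 6 to 20 CpG dinucleotides with a median of 10.5, and each was at or above percentile 82.0 of all optimal peaks, whose median was 2. Peak 9 had the most, 20, and peak 8 the fewest, 6. Windows of the same length laid end to end had a median of 4 CpGs up to peak 10 and 2 beyond it. The means were higher, at 6.64 and 3.92, and peak 8 lay below the first of them. The high percentiles thus partly describe the stretch as a whole. G and C content varied more, from 38.3% at peak 8 to 74.1% at peak 9. Bases masked as repeats made up at most 20.9% of any window.

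Below the IDR threshold, weaker summits continued into the anterior part. Replicate 1 had 26 summits in the span with no optimal summit within 100 bases, replicate 2 had 25, and 4 sites were common to both. The strongest of these ranked 86768 in replicate 1 and 85470 in replicate 2. Beyond peak 10 there were 10 in each replicate, with signals of at most 5.22 and 5.42. Of the 4 common sites 2 lay there. The first was between Hoxd4 and Hoxd3, at 74740467 in replicate 1 and 74740507 in replicate 2, with signals of 4.56 and 5.42. The second was between Hoxd3 and Hoxd1, inside the noncoding gene Haglr, at 74757902 and 74757974, with signals of 4.41 and 3.61; this is where the 1 match with a pooled summit lay, on the plus strand with a score of 10.4. In the pooled list the first had a signal of 11.3, and 0.968% of optimal peaks had less.

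The cluster held more summits than its surroundings. Within 100 kb before the span there were 2 optimal summits, 1 over Evx2 (signal 184.2, 2.73 kb outside) and 1 in an intron of Lnpk (45.9), a gene of the endoplasmic reticulum. Within 100 kb after it there was 1, at the Mtx2 start (19.04). The density was 0.856 per 10 kb in the span against 0.2 and 0.1 in these flanks. The ratio to the mean of the flanks was 5.71, but it rests on 3 flanking summits and was 13.7 among peaks above the median signal, where 1 of the 3 remained. It was 7.70 without replicate 1 and 8.56 without replicate 2, and in both cases the Mtx2 summit was absent. The replicate lists gave 13 and 18 summits before the span and 4 and 6 after it, for replicates 1 and 2, so the side of Mtx2 was the sparser in each. When chromosomes 1 to 19 and X were cut into 22532 windows of the span's length, the median window held 2 optimal summits and 8.22% held 10 or more; on chromosome 2 it was 9.18% of 1558.

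**Figure D3:**
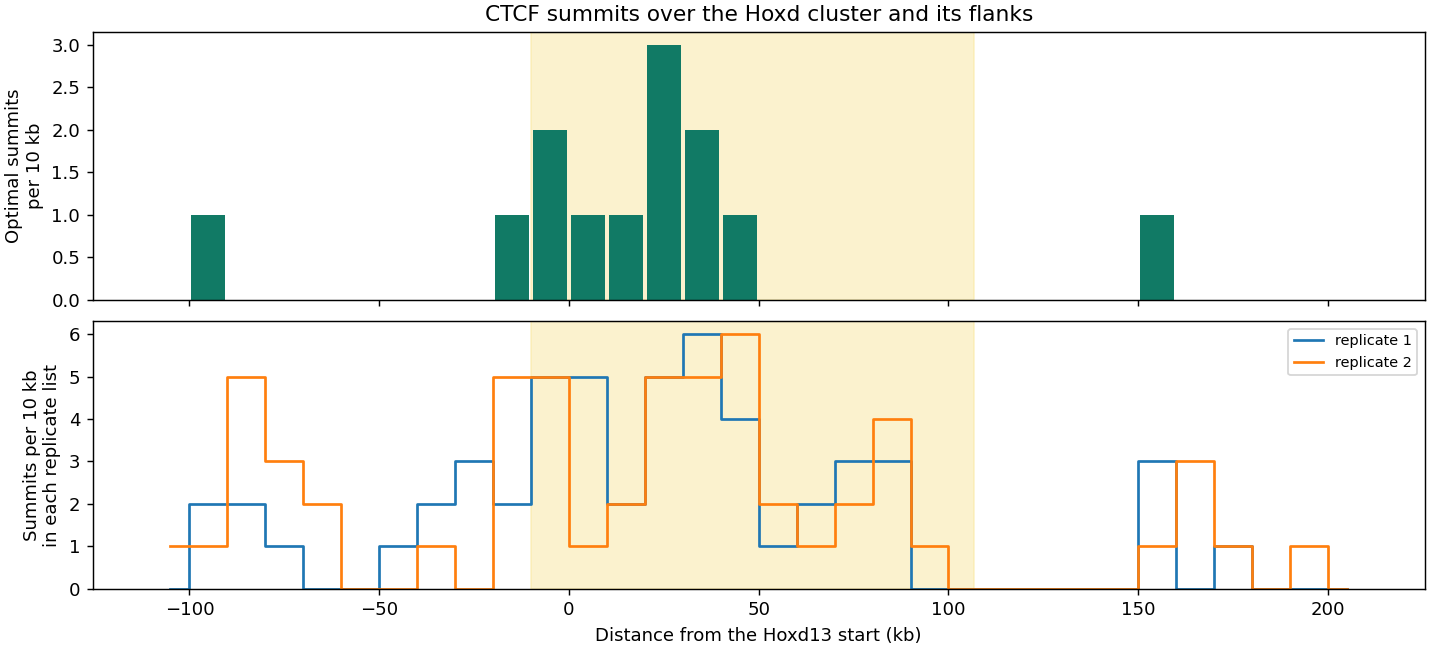
Optimal summits (upper panel) and summits of each replicate list (lower panel) per 10 kb, against distance from the Hoxd13 start in kb; the shaded area is the span. Optimal summits reach 3 per 10 kb near Hoxd10 and are at 0 in every shaded bin beyond 50 kb, where the replicate lists still hold up to 4.

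The other Hox clusters were measured in the same way, with 10 kb beyond their outermost genes. Hoxa had 11 optimal summits in 125.3 kb (0.878 per 10 kb), Hoxb 17 in 193.9 kb (0.877) and Hoxc 7 in 135.8 kb (0.516), against 0.856 for Hoxd. Of the 30 Hoxa, Hoxb and Hoxc genes 26 had a summit within 10 kb of a TSS, beside 8 of 9 for Hoxd. The median signal was 278.7 in Hoxa, 189.4 in Hoxd, 96.9 in Hoxc and 80.8 in Hoxb, and the strongest peaks were 568.9, 494.3, 391.3 and 441.8 in the same order of clusters.

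Taken along the direction of transcription and at the usual threshold, the outermost motif on the group 13 side pointed against it in all 4 clusters. Only in Hoxd did this motif lie before the group 13 gene. In Hoxc it lay 32.4 kb into the span, past the end of Hoxc12 at 27.5 kb. At the stricter threshold the outermost motif left in Hoxd pointed along transcription. Hoxa had 5 motifs with 2 changes of direction, Hoxb 11 with 4 and Hoxc 6 with 3, next to 6 with 3 in Hoxd. In Hoxc and Hoxd the final motif pointed along transcription, in Hoxa and Hoxb against it. Each cluster is 1 locus, and none of these differences was tested.

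**Figure D4:**
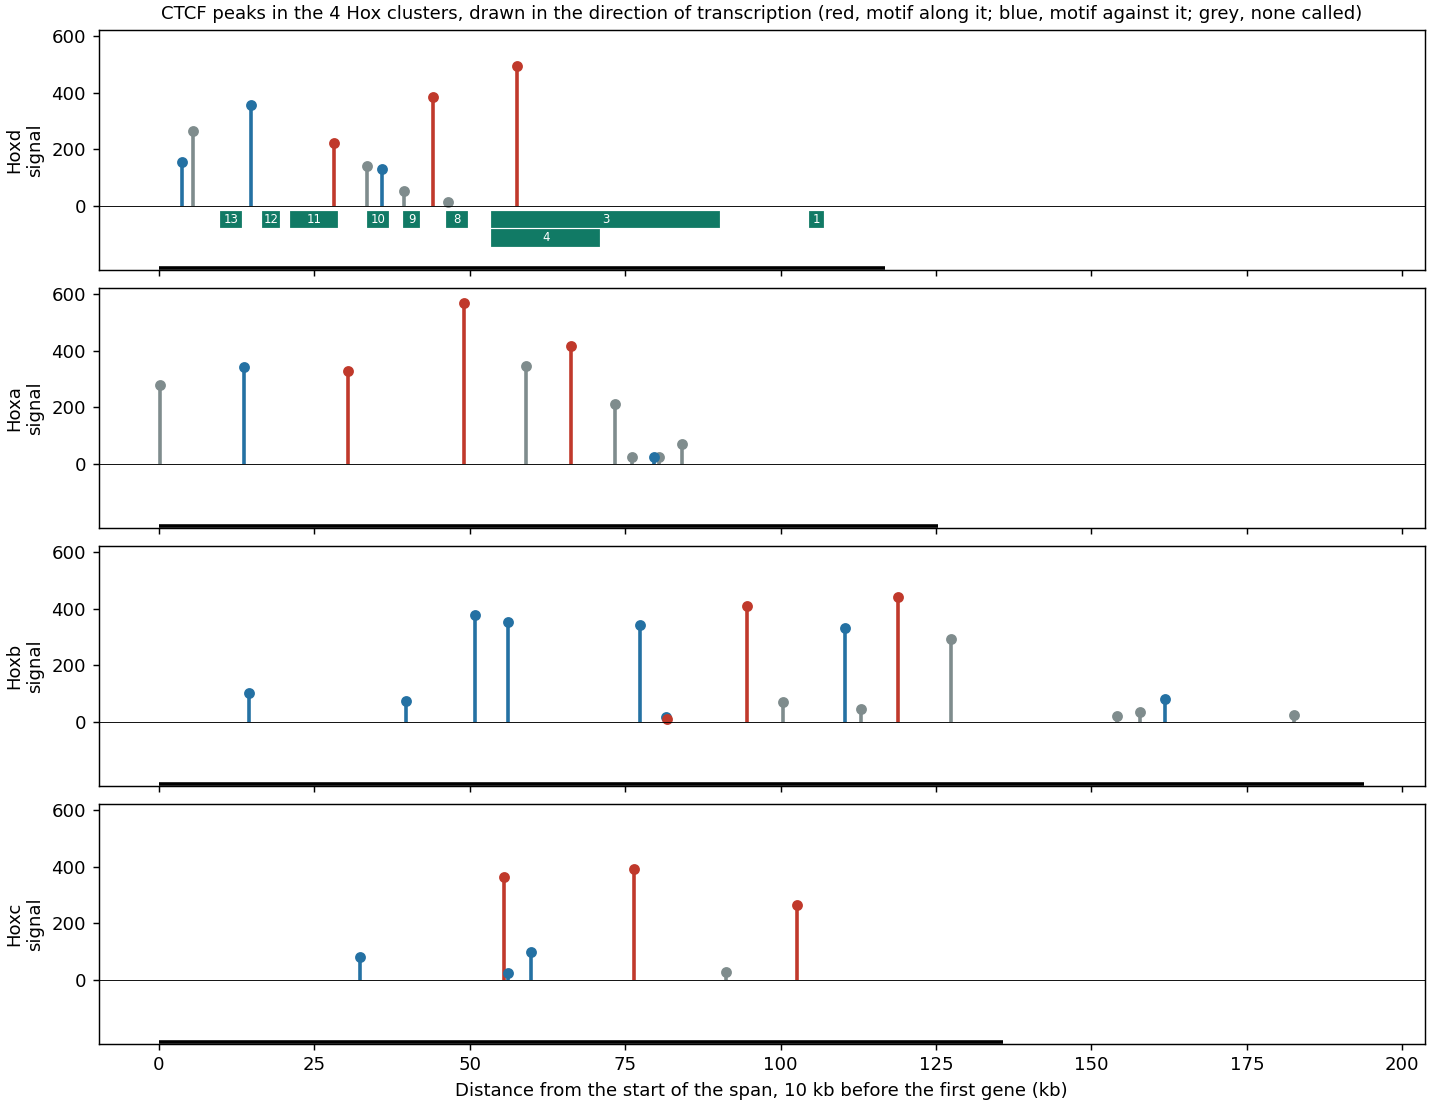
Optimal peaks of the 4 Hox clusters, signal against distance in kb from the start of each span in the direction of transcription; red stems have a motif along transcription, blue against it and grey none; numbered boxes are the genes, drawn for Hoxd only, and the black bar is the span. The tallest peak of Hoxd (494.3) is its last, whereas lower peaks follow the tallest in each of the others.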

How the data were processed

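CTCF ChIP-seq peak lists of 2 biological replicates on mm10 were used as deposited. Per the text deposited beside the lists, pooled peaks were called on both replicates' alignments together, and the IDR lists derive from the replicate and pooled lists; each also used 1 more file whose role is unstated. The sources used here give no aligner, peak caller, IDR threshold or read depth. The signal of a peak is the authors' deposited enrichment value. The summit is the deposited offset from the peak start, written here 1-based.

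GENCODE M21 annotation and the GRCm38.p6 sequence were used, and no peak ran past a chromosome end. The motif matrix was trained on the 5000 strongest optimal peaks of odd-numbered chromosomes and X, in 6 rounds with a pseudocount of 1, so that chromosome 2 took no part; it was tested on simulated data. A promoter was 1 kb around a TSS. Summits were matched within 100 bases.

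The members and lists were chosen with earlier results of these data known. Named were all members, every peak of the span, the protein-coding genes of the flanks and, as counts, the other Hox genes; 1 result named by this rule is not reported here. Alternatives were other peak lists, windows, margins, thresholds and matrices. Python 3.11.15, numpy 2.4.6, pandas 2.3.3, pysam 0.24.0 and matplotlib 3.10.9 were used.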

Additional observations from a re-analysis of the deposited data

How the results depend on the processing

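Of 52 alternative values, 37 stayed within 1.5 times a count or within the SD of the single replicates (0.605 for the density ratio, 4.71 percentage points for the motif share, 0.0484 for the ratio of clusters), and 15 moved further. The density of the span over its flanks (5.71) was 13.7 among peaks above the median signal, 8.56 with flanks of 50 kb, 4.89 with flanks of 200 kb, and 7.70 to 8.56 with a replicate left out. The members with a summit numbered 4 at 2 kb and 3 at 1 kb instead of 8. The motif share (60%) was 66.7% in the conservative list, 75% among peaks above the median signal, 20% at the threshold of 1%, and 60% to 66.7% with a replicate left out. At that threshold there were 0 changes of strand and 0 motif matches without a peak. Hoxd density over the mean of the other clusters (1.13) was 0.962 in the conservative list, which turns its side, and 1.48 among peaks above the median signal. The count of 0 summits beyond the Hoxd4 coding start, and the coding start as reference, were chosen after seeing the data. No paired analysis was possible because there is 1 group. Depth is unknown, so a peak missing from a list was not detected rather than shown to be absent.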
